A study of Homo sapiens with 10 samples.

Results

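The genes described here are 8 ATP-binding cassette (ABC) transporters that move drugs out of cells: ABCB1, ABCC1, ABCC2, ABCC3, ABCC4, ABCC5, ABCC10 and ABCG2. They were taken from a list of symbols of known drug efflux pumps, and each symbol was matched through GENCODE to 1 of the 63677 Ensembl gene identifiers counted in each library. All 8 were found, and the family of human ABC genes used for comparison holds 48 genes, 40 of them outside this list. RNA-Seq libraries came from RS4;11, an established cell line from a B-cell precursor leukemia of the acute lymphoblastic type (BCP-ALL). The 5 VENins lines had been grown in parallel in rising concentrations of venetoclax (VEN), an inhibitor of the anti-apoptotic protein BCL-2, up to 100 nM over 8 months. The 5 VENsens lines were exposed over the same period to matching amounts of the solvent DMSO only. VENins lines were kept in venetoclax, and according to the study's methods the drug was washed out before cells were analyzed. Each line gave 1 library, and since all lines descend from a single cell line, p-values measure the spread between parallel cultures of RS4;11.

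ABC transporters span a membrane and use the energy of ATP to push substrates across it. P-glycoprotein (encoded by ABCB1, also known as MDR1) and BCRP (encoded by ABCG2) export many unmodified hydrophobic drugs, and venetoclax is a known substrate of both. The ABCC genes of the list encode multidrug resistance-associated proteins (MRPs), several of which export drugs together with or joined to glutathione, glucuronide or sulfate.

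The libraries held between 20631907 and 28323643 counts on genes, and values are given as CPM, counts relative to library size, after scaling of library sizes by trimmed mean of M-values (TMM). At this depth, the 3 counts that a count of 0 still allows correspond to between 0.106 and 0.145 CPM in a library. Marker genes were compared with the labelled cell type. Of 12 B-cell precursor markers, 11 passed the filter on low counts, and their summed level lay between 3709 and 3804 CPM in VENsens lines and between 3632 and 4068 CPM in VENins lines. IGLL1, a surrogate light chain gene, was the most abundant of them per kilobase of exon, and CD24 was at 0 in every library. The 6 T-cell markers together did not exceed 1.08 CPM in any library, with CD3E the most abundant and CD8A at 0. The 6 erythroid markers reached at most 0.282 CPM together, with ALAS2 the most abundant and HBA1 and AHSP among those at 0. The 6 epithelial and stromal markers reached at most 3.38 CPM together, with COL1A1 the most abundant and EPCAM, KRT18 and DCN at 0. The 6 myeloid markers summed to between 12.5 and 15.7 CPM in VENsens lines and between 14.1 and 18.3 CPM in VENins lines, with CSF1R the most abundant and none of them at 0 in all libraries. Reads that align to several places were not counted. A marker at 0 is therefore not a measure of expression where the gene has near-identical copies.

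Levels of different genes were compared as CPM per kilobase of exon, using the union of annotated exons. Over all 10 libraries ABCC1 was the highest of the list, with a mean level of 4.98 ± 0.325 CPM per kilobase (SD, n = 10). ABCC4 followed at a mean level of 3.51 ± 0.254 CPM per kilobase, and ABCC5 at 3.05 ± 0.256 CPM per kilobase. The ranges of ABCC4 and ABCC5 overlapped, whereas those of ABCC1 and ABCC4 did not. ABCC10 stood below these genes at a mean level of 1.28 ± 0.140 CPM per kilobase, and ABCC2 at 0.235 ± 0.0452 CPM per kilobase, and their ranges overlapped with none of the others. ABCB1 and ABCG2 came last among the detected genes, at mean levels of 0.0218 and 0.0187 CPM per kilobase, with overlapping ranges, and ABCC3 had no count. With the longest annotated transcript as the length, ABCC5 moved from the third place to the first. Among the 48 ABC genes, ABCC1 ranked 8, ABCC4 ranked 10, ABCC5 ranked 12, ABCC10 ranked 16 and ABCC2 ranked 23 by mean CPM per kilobase. In these ranks TAP1, TAP2 and ABCF1 stand at 0, although a count of 0 is not a measure of expression for them, as described further on. Among the 16312 tested genes with a known exon length, 49.7% lay below ABCC1 on this scale, 24.9% below ABCC10 and 6.46% below ABCC2.

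**Figure D1:**
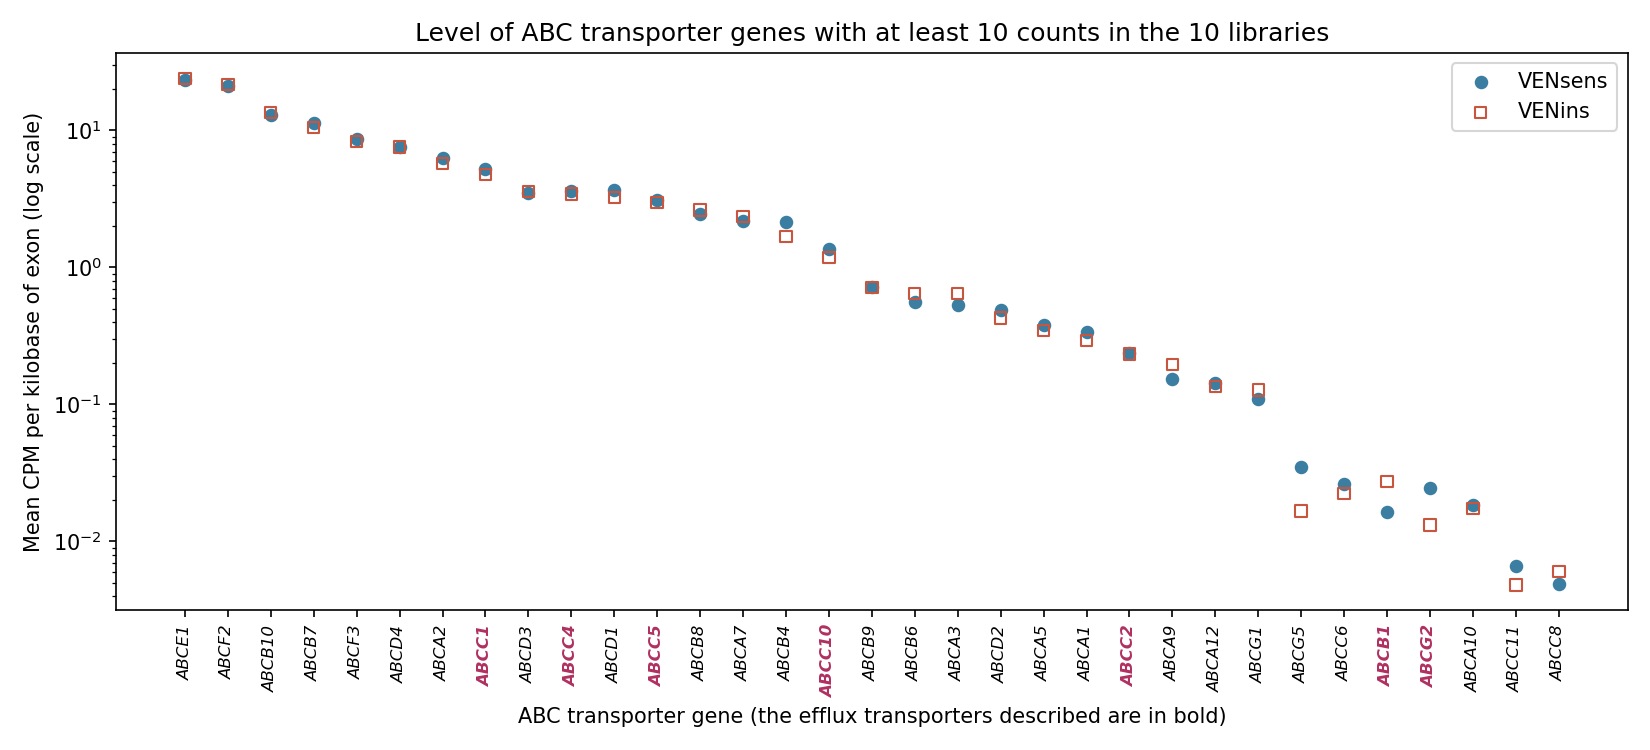
Mean level of each ABC gene with at least 10 counts in all libraries together, in CPM per kilobase of exon on a log scale, with filled circles for VENsens and open squares for VENins lines. Names of the listed efflux transporters are in bold; ABCC1 is the highest of them at 4.98 CPM per kilobase over both groups, and ABCB1 and ABCG2 stand at 0.0218 and 0.0187.

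ABCB1 (ENSG00000085563, chromosome 7), the P-glycoprotein gene, was close to the detection limit in every line. It had 0, 3, 1, 5 and 2 counts in VENsens lines 1 to 5, and 4, 4, 2, 8 and 1 counts in VENins lines 1 to 5. In CPM these were 0, 0.145, 0.0352, 0.217 and 0.0798 for VENsens and 0.188, 0.163, 0.0814, 0.314 and 0.0436 for VENins lines. VENins line 4 was the highest and VENsens line 1 the lowest, and the groups overlapped over most of their range, with the VENins line higher in 4 of 5 pairs. The pooled counts, 11 in VENsens and 19 in VENins lines, gave a ratio of VENins over VENsens of 1.76 with an exact 95% interval of 0.797 to 4.10, which covers counting error only. An exact two-sided permutation test of the CPM values over the 10 lines gave p = 0.349. ABCB1 did not pass the filter on low counts and was tested only with the filter left out, where its log2 fold change was 0.73 with a 95% interval of -0.69 to 2.14 (edgeR's quasi-likelihood test, Benjamini-Hochberg adjusted p = 0.879). A difference was therefore not detectable at this depth. The highest ABCB1 level of any library, 0.0541 CPM per kilobase in VENins line 4, was below the lowest ABCC2 level of any library, 0.177 CPM per kilobase in VENsens line 4. Genes next to ABCB1 on chromosome 7 were counted in these libraries, among them ABCB4 with 3559 and SLC25A40 with 27641 counts in all.

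ABCG2 (ENSG00000118777, chromosome 4), which encodes BCRP, was at a similarly low level. VENsens lines 1 to 5 had 3, 2, 3, 2 and 5 counts, and VENins lines 1 to 5 had 1, 0, 4, 2 and 1. These corresponded to 0.125, 0.0969, 0.106, 0.0867 and 0.199 CPM in VENsens and to 0.0470, 0, 0.163, 0.0786 and 0.0436 CPM in VENins lines. VENsens line 5 was the highest and VENins line 2 the lowest, and VENins line 3 lay above 4 of the 5 VENsens lines, while the VENins line was lower in 4 of 5 pairs. From 15 pooled counts in VENsens and 8 in VENins lines, the ratio of VENins over VENsens was 0.544 with an exact 95% interval of 0.20 to 1.37. The exact two-sided permutation test over lines gave p = 0.135 for ABCG2. With no filter on low counts its log2 fold change was -0.82 with a 95% interval of -2.47 to 0.82 (edgeR's quasi-likelihood test, Benjamini-Hochberg adjusted p = 0.879), so that a difference in either direction was not detectable at this depth.

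Sequences upstream of annotated starts are shown for ABCB1 and ABCG2, the genes near 0, beside ABCC4 and ABCC2, which had the most and the fewest CG dinucleotides among the detected ABCC genes with an entry. The table of RefSeq starts used here (GRCh38.p14) holds entries for ABCB1, ABCC2, ABCC4, ABCC5, ABCC10 and ABCG2, several for some of them; ABCC1 and ABCC3 have no entry in it, and their starts were not analysed here. Each window covers the 250 bases before a start, written 5′ to 3′ on the gene's strand, and capitals mark the dinucleotide CG, which reads the same on both strands. The ABCB1 window lies at chr7:87600885-87601134 on the minus strand, that of ABCG2 at chr4:88158640-88158889 on the minus strand, that of ABCC4 at chr13:95301452-95301701 on the minus strand and that of ABCC2 at chr10:99782390-99782639 on the plus strand.
ABCB1: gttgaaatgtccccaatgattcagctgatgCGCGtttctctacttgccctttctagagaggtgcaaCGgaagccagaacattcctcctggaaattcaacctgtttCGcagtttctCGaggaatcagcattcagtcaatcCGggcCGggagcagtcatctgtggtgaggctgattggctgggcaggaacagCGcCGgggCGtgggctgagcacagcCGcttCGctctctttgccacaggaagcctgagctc
ABCG2: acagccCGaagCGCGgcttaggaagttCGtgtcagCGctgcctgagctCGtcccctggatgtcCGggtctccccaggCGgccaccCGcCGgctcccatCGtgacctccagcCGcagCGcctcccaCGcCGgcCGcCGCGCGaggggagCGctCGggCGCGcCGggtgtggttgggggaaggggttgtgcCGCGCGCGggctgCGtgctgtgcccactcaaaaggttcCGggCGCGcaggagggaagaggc
ABCC4: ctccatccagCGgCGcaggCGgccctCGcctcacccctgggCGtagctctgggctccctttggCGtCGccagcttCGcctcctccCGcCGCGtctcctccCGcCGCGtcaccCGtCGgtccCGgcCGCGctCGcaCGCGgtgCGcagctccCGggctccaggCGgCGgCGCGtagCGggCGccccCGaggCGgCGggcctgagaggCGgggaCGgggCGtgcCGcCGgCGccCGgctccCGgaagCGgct
ABCC2: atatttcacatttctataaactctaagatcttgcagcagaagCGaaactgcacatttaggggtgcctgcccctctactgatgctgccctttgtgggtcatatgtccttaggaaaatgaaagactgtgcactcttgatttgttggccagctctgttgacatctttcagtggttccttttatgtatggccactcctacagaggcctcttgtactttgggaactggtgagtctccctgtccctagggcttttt
The windows held 12 CG dinucleotides for ABCB1, 32 for ABCG2, 42 for ABCC4 and 1 for ABCC2. A second ABCB1 window held 1, the other ABCG2 windows held 29, 27, 5 and 2, that of ABCC5 held 21, and those of ABCC10 held 14 and 16. Over all 35116 such windows of 27305 genes the median was 11 with quartiles of 3 and 23, and 93.9% held at least 1. Methylation was not measured, and the counts of CG are a description of the reference sequence.

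ABCC1 (ENSG00000103222, chromosome 16) encodes MRP1, an exporter of glutathione conjugates and of several anticancer drugs. VENsens lines 1 to 5 had 40.3, 41.3, 37.9, 38.4 and 39.5 CPM, and VENins lines 1 to 5 had 36.6, 34.5, 35.9, 38.9 and 33.9 CPM. Of the VENins lines only line 4 reached into the VENsens range, where it lay above lines 3 and 4, so the groups overlapped by that line. The means were 39.5 ± 1.40 CPM in VENsens against 36 ± 1.96 CPM in VENins lines (SD, n = 5 each), and the VENins line was lower in 4 of 5 pairs of lines with the same number. Lines with the same number did not deviate together, as given further on. Counts of pairs, here and for the other genes, are therefore a description only. The fitted log2 fold change of VENins over VENsens was -0.14 with a 95% interval of -0.27 to -0.00030, and with an unadjusted p of 0.0496 the adjusted p was 0.308 (edgeR's quasi-likelihood test, Benjamini-Hochberg adjustment over all tested genes). ABCC1 thus did not pass the threshold of 0.05, and the upper end of its interval, just under 0, lay above 0 with RLE size factors (0.0020), with no filter on low counts (0.011) and without line pairs 1, 2, 3 and 5 (0.021, 0.045, 0.015 and 0.029). It was also above 0 with length and GC trends taken out (0.048). The upper end stayed below 0 with no replicate block (-0.020), with library size alone (-0.0048), with at least 10 counts in every library (-0.00053) and without pair 4 (-0.015). Because a library is a bulk of cells, fewer cells with a transcript and less transcript per cell cannot be told apart here or for the other genes.

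ABCC10 (ENSG00000124574, chromosome 6) encodes MRP7, known for export of taxanes and vinca alkaloids, and had the smallest p of the list in the main fit. By the exact two-sided permutation test over the 10 lines ABCC1 came first, at p = 0.0238 before 0.0397 for ABCC10, neither adjusted for the number of genes. The values of ABCC10 were 11.6, 11.2, 11.1, 10.3 and 11.1 CPM in VENsens lines 1 to 5 and 9.11, 8.38, 9.03, 10.1 and 11.3 CPM in VENins lines 1 to 5. VENins lines 1 to 4 all lay below the lowest VENsens line, whereas VENins line 5 lay above 4 of the 5 VENsens lines. The means were 11.1 ± 0.459 CPM in VENsens against 9.57 ± 1.13 CPM in VENins lines (SD, n = 5 each). The log2 fold change was -0.21 with a 95% interval of -0.41 to -0.016, lower in 4 of 5 pairs, at an unadjusted p of 0.0363 and an adjusted p of 0.275 by edgeR's quasi-likelihood test with Benjamini-Hochberg adjustment. ABCC10 shares 79 exon bases, 0.977% of its exons, with DLK2 on the other strand, and the library kit does not mark strand, so reads of this stretch cannot be assigned to either gene.

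ABCC4 and ABCC5 encode MRP4 and MRP5, which export cyclic nucleotides and nucleotide analogs. ABCC4 (ENSG00000125257, chromosome 13) had 30.3, 31.7, 27.0, 31.8 and 34.0 CPM in VENsens lines 1 to 5 and 31.6, 28.7, 29.1, 31.3 and 27.4 CPM in VENins lines 1 to 5. The groups overlapped almost completely, with VENsens line 3 the lowest and VENsens line 5 the highest of the 10. The log2 fold change of ABCC4 was -0.061 with a 95% interval of -0.21 to 0.093 and an adjusted p of 0.730 (edgeR's quasi-likelihood test with Benjamini-Hochberg adjustment). ABCC5 (ENSG00000114770, chromosome 3) had 36.8, 40.4, 35.8, 35.5 and 29.7 CPM in VENsens lines 1 to 5 and 36.5, 33.5, 33.7, 31.9 and 34.5 CPM in VENins lines 1 to 5. All VENins values of ABCC5 lay inside the VENsens range, which ran from line 5 to line 2. Its log2 fold change was -0.062 with a 95% interval of -0.22 to 0.093 and an adjusted p of 0.728 by the same edgeR quasi-likelihood test and Benjamini-Hochberg adjustment.

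ABCC2 (ENSG00000023839, chromosome 10) encodes MRP2, the exporter of conjugates into bile in the liver. It was detected in all lines at a low level, with 40, 53, 61, 32 and 38 counts in VENsens lines 1 to 5 and 41, 49, 49, 41 and 37 counts in VENins lines 1 to 5. These were 1.66, 2.57, 2.15, 1.39 and 1.52 CPM in VENsens against 1.93, 2.00, 1.99, 1.61 and 1.61 CPM in VENins lines. All VENins values lay within the wider VENsens range. The log2 fold change was -0.0069 with a 95% interval of -0.35 to 0.33, the widest of the tested genes on the list, and an adjusted p of 0.990 (edgeR's quasi-likelihood test with Benjamini-Hochberg adjustment). ABCC3 (ENSG00000108846, chromosome 17), which encodes MRP3, a basolateral exporter of glucuronides, had 0 counts in all 10 libraries. Pooled over a group, this allows up to 0.0247 CPM in VENsens against 0.0253 CPM in VENins lines, so no fold is given. Its neighbours on chromosome 17 were counted, among them ANKRD40 with 14756 and LUC7L3 with 72627 counts in the 10 libraries, though 2 of 5 were near 0 as well (CACNA1G with 6 and EPN3 with 3 counts).

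**Figure D2:**
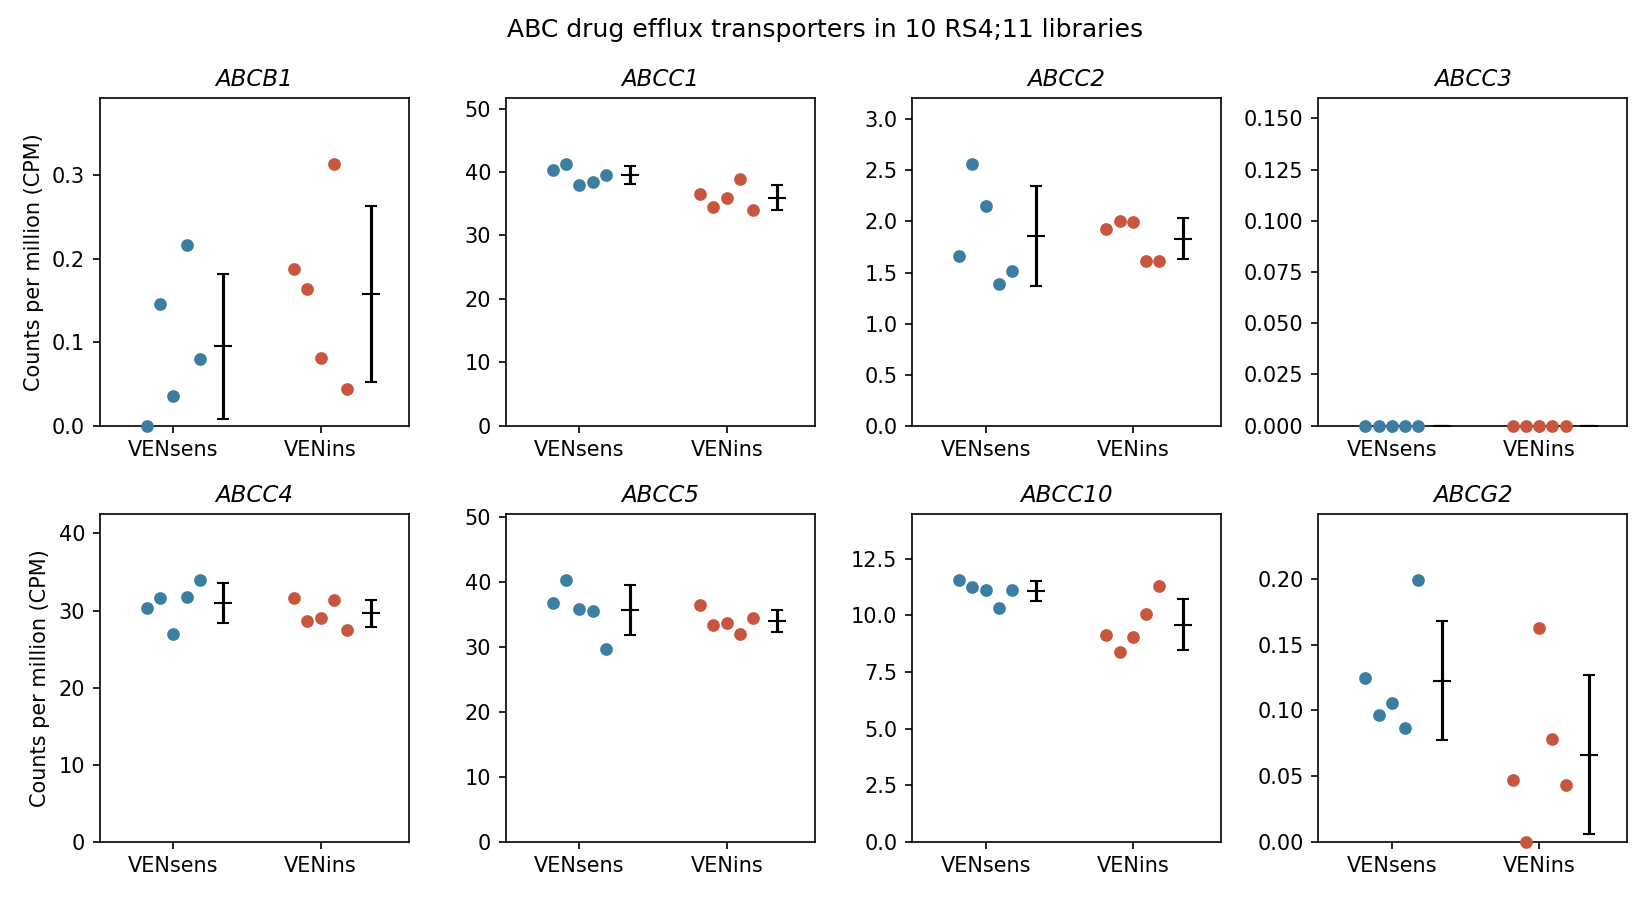
CPM of each transporter gene in VENsens (blue) and VENins (red) lines, with a point for each library in the order of lines 1 to 5 and the mean ± SD of 5 lines beside them; each panel has its own axis from 0. In ABCC10, VENins lines 1 to 4 lie below all VENsens lines and line 5, at 11.3 CPM, does not, while ABCB1 and ABCG2 stay at or below 0.314 CPM.

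The spread between lines of a group was set beside that expected from counting alone, as a coefficient of variation of CPM. For ABCC1 it was 3.55% in VENsens lines where counting alone gives 3.25%, and 5.46% in VENins lines where counting gives 3.43%. ABCC5 varied more in VENsens lines, at 10.8% with 3.42% from counting, than in VENins lines, at 4.94% with 3.52% from counting. ABCC10 showed the opposite order, with 4.15% in VENsens lines and 11.8% in VENins lines against 6.14% and 6.65% from counting. The difference in spread between groups was not tested. ABCC4 had 8.30% in VENsens and 5.98% in VENins lines, with 3.67% and 3.78% from counting. ABCC2 had 26.5% and 11.0%, with 15% and 15.2% from counting.

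Of the 8 transporters, 5 passed the filter on low counts (ABCC1, ABCC2, ABCC4, ABCC5 and ABCC10), and 0 of these 5 had an adjusted p under 0.05 in edgeR's quasi-likelihood test, beside 0.197% of all tested genes (33 of 16756, of which 6 had a higher and 27 a lower level in VENins lines). DESeq2 with the line number in the model called 217 genes, and among the transporters 0 had an adjusted p, and 0 an unadjusted p, under 0.05. The number of called genes depended on single pairs of lines: it was 57, 6, 17, 331 and 9 when lines 1, 2, 3, 4 and 5 were left out in turn, and 0 transporters were called in each case. At an unadjusted p under 0.05, 2 of the 5 tested transporters, ABCC1 and ABCC10, were lower in VENins lines, beside 8.38% of all tested genes. This count was 0 when line pair 1, 2 or 3 was left out, 1 (ABCC10) without pair 5 and 2 without pair 4; with RLE size factors or no filter on low counts it was 1, again ABCC10, and with library size alone or at least 10 counts in every library it stayed at 2. In the other direction 0 of the 5 transporters had an unadjusted p under 0.05, beside 7.79% of tested genes. The groups did not overlap, in either direction, for 0 of the 5 transporters, beside 4.66% of tested genes. The median log2 fold change of the 5 tested transporters was -0.062, and that of all tested genes was 0.0035. All 5 estimates were below 0, as were 48.9% of those of all tested genes. With length and GC trends taken out, those of ABCC2 and ABCC5 were above 0. That of ABCC2 was also above 0 in DESeq2 with the line number and without line pair 2 or 3, and that of ABCC4 without pair 5. The upper ends of the 95% intervals correspond to folds of 1.00 for ABCC1, 0.989 for ABCC10, 1.07 for ABCC4, 1.07 for ABCC5 and 1.26 for ABCC2.

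The transporters are long genes, and the libraries differed by gene length. The exon unions of the 5 tested transporters measure between 7575 bases for ABCC1 and 11441 bases for ABCC5. In a smooth fit of each library's deviations on exon length and GC content, the longest 10% of genes minus the shortest 10% was 0.039, 0.17, -0.015, 0.060 and 0.049 on the log2 scale in VENsens lines 1 to 5. In VENins lines 1 to 5 this difference was -0.013, -0.11, -0.076, -0.038 and -0.070. All VENins lines except line 1 lay below all VENsens lines in this trend. Among the 2113 tested genes with exon unions in the range of the transporters, the median log2 fold change was -0.048, 66.7% of estimates were below 0, and 16.6% were lower in VENins lines at an unadjusted p under 0.05. In the shortest 10% of tested genes the median log2 fold change was 0.073. With both trends taken out and the line number kept in the model, the log2 fold change of ABCC1 was -0.074 at an unadjusted p of 0.212 and that of ABCC10 was -0.15 at an unadjusted p of 0.0680, so that neither remained under 0.05. What gave rise to the length trend was not tested.

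**Figure D3:**
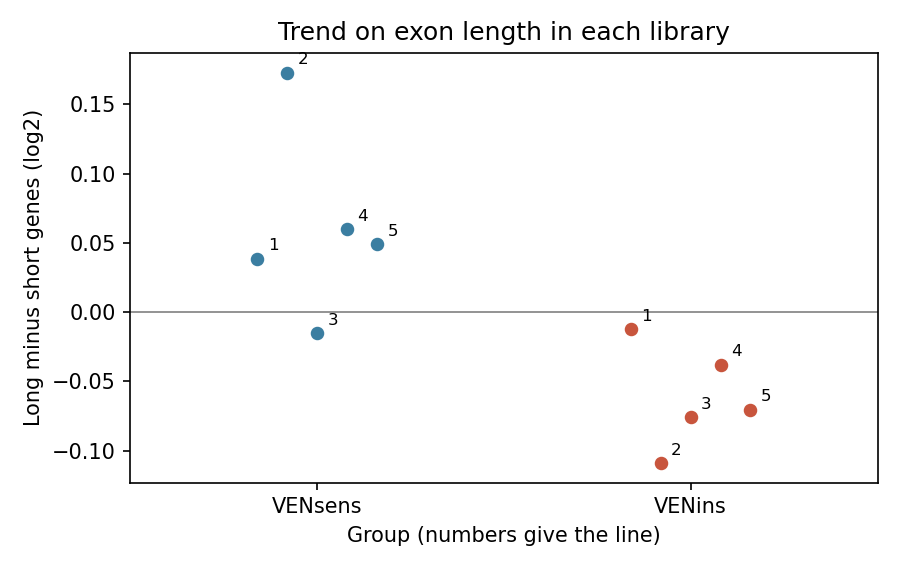
Fitted difference between long and short genes in each library, in log2 units, for VENsens (blue) and VENins (red) lines with the line number beside each point. VENins lines lie between -0.11 and -0.013, and VENsens lines between -0.015 and 0.17.

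**Figure D4:**
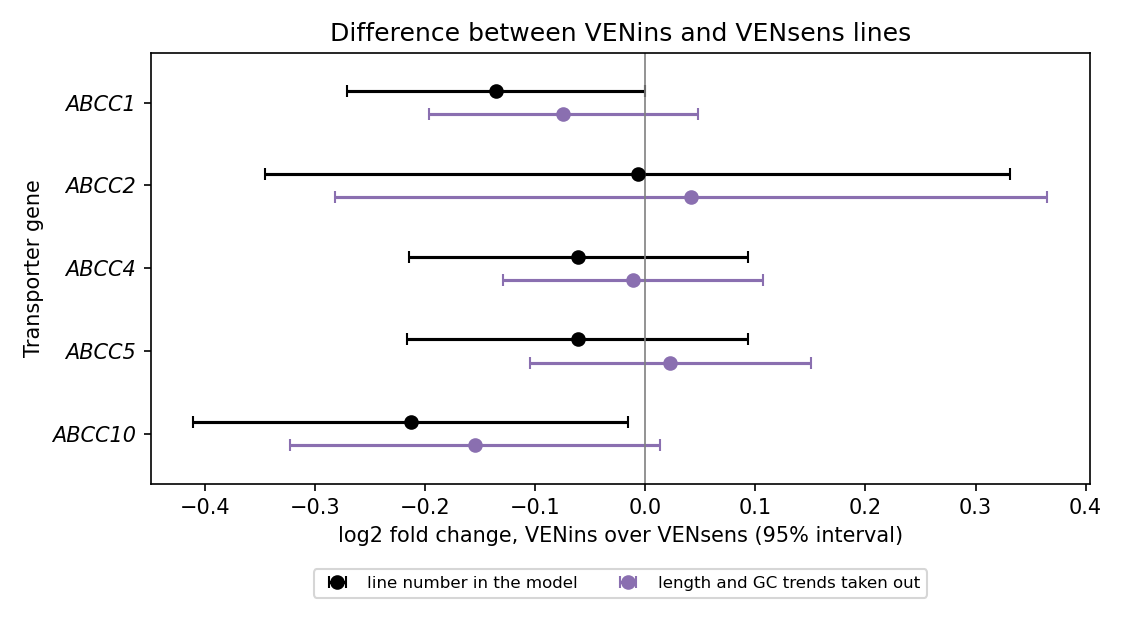
Log2 fold change of VENins over VENsens lines with 95% intervals for the 5 transporters that passed the filter, in the model with the line number (black) and with length and GC trends taken out as well (purple). The intervals of ABCC1 and ABCC10 lie below 0 in the model with the line number, ending at -0.00030 and -0.016, and include 0 once the trends are taken out.

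Of the 40 other ABC genes, 21 were tested and 0 had an adjusted p under 0.05 in edgeR's quasi-likelihood test, with an unadjusted p under 0.05 for 1 gene higher and 1 lower in VENins lines, beside 7.79% and 8.38% of all tested genes. DESeq2 with the line number called 0 of them as well, and likewise 0 genes of each of the regulator, conjugation, oxidation, uptake and vault lists given further on. Their median log2 fold change was -0.012, with 10 estimates above and 11 below 0. ABCB4 (ENSG00000005471), which encodes a phospholipid floppase of the bile canaliculus and lies next to ABCB1, had the smallest p of them. Its level was 16.7 ± 1.14 CPM in VENsens against 13.0 ± 1.82 CPM in VENins lines (SD, n = 5 each), from 15.9 to 18.7 in the former and from 11.5 to 15 in the latter, without overlap. Without overlap, all 5 pairs are lower whichever lines are paired. The log2 fold change of ABCB4 was -0.37 ± 0.094 (SE), with an adjusted p of 0.0974 in edgeR's quasi-likelihood test with Benjamini-Hochberg adjustment, and it did not pass the threshold. It passed in 3 of 13 alternatives, among them without line pair 4 (adjusted p = 0.0321 in edgeR's quasi-likelihood test with Benjamini-Hochberg adjustment) and in the same edgeR test with no filter on low counts (0.00573, the lowest of all). The highest was 0.538 in edgeR's test without pair 2. ABCE1, a ribosome recycling factor that transports nothing, had the highest level per kilobase of the ABC genes with any count, with 23.6 CPM per kilobase. Of the 12 genes of subfamily C, 5 passed the filter, and all 5 are on the list of efflux transporters.

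Zero counts of ABC genes differ in what they show. Of the 48 ABC genes, 10 had no count in any library: ABCC3, ABCA8, ABCA13, TAP1, TAP2, ABCB5, ABCB11, CFTR, ABCC9 and ABCF1. TAP1, TAP2 and ABCF1 lie in the major histocompatibility region of chromosome 6, where 123 of 150 protein-coding genes from HLA-F to DAXX (82.0%) had no count, beside 17.1% of all protein-coding genes. The ribosomal protein gene RPS18, needed by every cell, had 3 counts there in all 10 libraries together, and the tubulin gene TUBB had 1. A count of 0 in this region is therefore not a measure of expression, and the same holds for RXRB among the regulators below. ABCC3 and the other 6 genes lie elsewhere.

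Genes that act with the transporters were described from lists. Of 25 regulators of transporter genes, 21 were tested and 0 had an adjusted p under 0.05 in edgeR's test, while 1 higher and 4 lower genes had an unadjusted p under 0.05 (7.79% and 8.38% of all tested genes did so); their median log2 fold change was -0.031. EGR1, an early response transcription factor, had the smallest p of these, with 5.44 ± 0.724 CPM in VENsens against 3.64 ± 0.420 CPM in VENins lines (SD, n = 5 each). Its groups did not overlap, with 4.68 CPM as the lowest VENsens and 4.32 CPM as the highest VENins value, and the log2 fold change was -0.58 ± 0.13 (SE) with an adjusted p of 0.0783 in edgeR's quasi-likelihood test with Benjamini-Hochberg adjustment. EGR1 passed the threshold in 4 of 13 alternatives, among them without line pair 4 and with no filter in edgeR's quasi-likelihood test with Benjamini-Hochberg adjustment (adjusted p = 0.0105 and 0.000744). Its highest adjusted p was 0.484, in the same edgeR test without pair 2. YBX1, a Y-box binding protein known to bind the ABCB1 promoter, was the most abundant regulator at 397 CPM per kilobase and had a log2 fold change of 0.12 (0.068 without line pair 2) with an adjusted p of 0.302 in the same edgeR test with Benjamini-Hochberg adjustment.

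Glutathione is a cofactor or conjugate of several MRP substrates. Of 20 genes of its synthesis and conjugation 19 were matched (GSTT1 was not), 16 were tested and 0 had an adjusted p under 0.05 in edgeR's test, while 1, higher in VENins lines, had an unadjusted p under 0.05, beside 7.79% of all tested genes; their median log2 fold change was 0.066. GSTO1, an omega class transferase, had the smallest p: 82.7 ± 6.75 CPM in VENsens against 95 ± 6.27 CPM in VENins lines, higher in 5 of 5 pairs, with a log2 fold change of 0.20 ± 0.063 (SE) at an adjusted p of 0.147 by edgeR's quasi-likelihood test with Benjamini-Hochberg adjustment. GSTP1 was the most abundant of the list at 114 CPM per kilobase, with a log2 fold change of 0.067 (0.012 without line pair 2) at an adjusted p of 0.631 in that edgeR test (Benjamini-Hochberg). Of 13 genes of drug oxidation and glucuronidation 5 were tested and 0 had an adjusted or unadjusted p under 0.05 in edgeR's test. Of all tested genes, 0.197% had an adjusted p under 0.05, and 7.79% and 8.38% were higher and lower at an unadjusted p under 0.05. The median log2 fold change of the 5 genes was 0.023. POR, the electron donor of cytochrome P450 enzymes, was both the most abundant and the gene with the smallest p, at 55.8 ± 1.91 CPM in VENsens against 59.7 ± 8.99 CPM in VENins lines (SD, n = 5 each). Its fitted difference was 0.088 on the log2 scale (0.016 without line pair 5), at an adjusted p of 0.551 in edgeR's quasi-likelihood test with Benjamini-Hochberg adjustment.

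Uptake carriers work against efflux. Of 15 such genes 8 were tested and 0 had an adjusted p under 0.05 in edgeR's test, while 1, lower in VENins lines, had an unadjusted p under 0.05, beside 8.38% of all tested genes; their median log2 fold change was -0.036. SLC31A1, a copper transporter that also carries platinum drugs, had 21.4 ± 1.57 CPM in VENsens against 18.9 ± 1.89 CPM in VENins lines and an adjusted p of 0.294 in edgeR's quasi-likelihood test with Benjamini-Hochberg adjustment. SLC29A2, a nucleoside carrier, was the most abundant per kilobase, with a log2 fold change of -0.12 (-0.045 without line pair 3) at an adjusted p of 0.424 in that edgeR test (Benjamini-Hochberg). Of 10 genes of efflux outside the ABC family and of the vault particle 8 were tested and 0 had an adjusted p under 0.05 in edgeR's test, while 2, both lower in VENins lines, had an unadjusted p under 0.05, beside 8.38% of all tested genes; their median log2 fold change was -0.031. EZR, which anchors membrane proteins to the actin cortex, was the most abundant of this list at 128 CPM per kilobase, with a log2 fold change of -0.011.

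Of the cell type markers, edgeR's test called 0 of 1 tested T-cell gene, 0 of 4 tested myeloid genes and 0 of 1 tested epithelial or stromal gene. No erythroid gene passed the filter, so none was tested. Among the tested genes of these lists only CSF1R, higher in VENins lines, had an unadjusted p under 0.05, beside 7.79% of all tested genes. The same test called 1 of the 11 tested B-cell precursor genes, beside 0.197% of all tested genes. Of these 11, 3 were higher and 3 lower in VENins lines at an unadjusted p under 0.05, beside 7.79% and 8.38% of all tested genes. DESeq2 with the line number gave the same calls. The called gene was PAX5, the B-lineage transcription factor, with 783 ± 42.9 CPM in VENsens lines and 631 ± 34.7 CPM in the VENins group (SD, n = 5 each). PAX5 fell by 0.31 on the log2 scale (adjusted p = 0.0272 in edgeR's quasi-likelihood test with Benjamini-Hochberg adjustment). Its groups did not overlap, as was so in either direction for 4.66% of all tested genes. All 5 pairs are then lower whichever lines are paired. Without line pairs 2, 3 and 5 its adjusted p was 0.242, 0.0597 and 0.0647, at log2 fold changes of -0.26, -0.34 and -0.32, in the same edgeR test with Benjamini-Hochberg adjustment, and it passed in the other 10 of 13 alternatives. IGLL1, the most abundant marker per kilobase of exon, had 681 ± 42.9 CPM in VENsens against 766 ± 76.5 CPM in VENins lines and an adjusted p of 0.183 in edgeR's quasi-likelihood test with Benjamini-Hochberg adjustment.

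The genes whose levels followed ABCC1 and ABCC10 most closely over the 10 libraries were taken as a description, by Pearson's r of log2 CPM. For ABCC1 these were PTCH1 with r = 0.967, DOCK5 with r = 0.966 and SORL1 with r = 0.957. Among the genes closest to ABCC10 were GCN1 with r = 0.956 and WDR81 with r = 0.953. The libraries share a cell line and the trend on exon length given above.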

How the data were processed

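RNA-Seq libraries (TruSeq kit v2, single-end) of 5 VENsens and 5 VENins lines of RS4;11 were used, with 1 library each. Per the labels and the submitters' processing notes, reads were demultiplexed with bcl2fastq 2.20.0.422, aligned with Bowtie2 2.3.5.1 to hg19/GRCh37, sorted with SAMtools 1.9 and counted with HTSeq 0.9.1; settings and annotation release are not given in the sources used here. The authors deposited raw counts per gene, without normalization. Files held 38491516 to 52960365 reads, of which 52.7% to 54.2% lay on genes; between 24.6% and 26.2% had a low alignment quality, 7.29% to 7.78% no gene, 3.69% to 3.98% several genes and 9.39% to 10.2% no alignment, and these stayed out of library sizes. Reads that align to several places are lost in this way, which lowers genes with near-identical copies. GENCODE 29 (GRCh38) named 52526 of 63677 identifiers; its gene lengths and the RefSeq windows are of a later build than the counts.

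Genes were filtered with filterByExpr (minimum count 10, total 15), normalized by TMM and tested with edgeR 4.0.16 in R 4.3.3 (glmQLFit and glmQLFTest, line number and group in the model, since the study describes a paired analysis), with Benjamini-Hochberg adjustment over all tested genes and a threshold of 0.05. Standard errors came from the F statistic and 95% intervals from its degrees of freedom. Log2 CPM used a prior count of 2. Intervals of ratios of pooled counts, and floors (3 counts), cover counting error only. Levels, permutation tests and figures used Python 3.11.15 with pandas 2.3.3, numpy 2.4.6, scipy 1.17.1 and matplotlib 3.10.9. The fits were tested on simulated data. Pairs of libraries of a group differed by more than sampling noise (chi-square over degrees of freedom at least 1.92). VENins line 5 stood apart, with values between 13.2 and 14.2 in its pairs, against 4.29 to 9.65 in the other VENins pairs. In VENsens pairs the value was at most 9.72.

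Alternatives were no replicate block, DESeq2 1.42.0, RLE size factors, library size alone, other filters, an offset for length and GC content (with the line number kept; natural splines, 4 degrees of freedom), each pair left out, and the longest transcript as the length. The members and lists were chosen with earlier results of these data known. Named genes are the 8 transporters, and in each other list genes with an adjusted p under 0.05, the tested gene with the smallest p and the gene with the highest CPM per kilobase, with the 3 genes most correlated with the highest transporter and with that of smallest p. The division of genes by exon length and the count of genes at 0 by region were chosen after seeing the data, as were the further genes named at 0 or as neighbours. Not every gene chosen by these rules is described.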

Additional observations from a re-analysis of the deposited data

Results flagged for a closer look

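In 5 of 48 groups of 5 lines examined for the transporters and the named genes, a line lay far from the other 4, with a gap of over 0.71 of the whole range; chance gives about 2.4 such groups. None of the 5 concerns a listed transporter. ABCB4 had 18.7 CPM in VENsens line 2, where the other VENsens lines lay between 15.9 and 16.6 CPM. CSF1R had 6.15 CPM in the same line, with the others between 9.17 and 9.65 CPM. EZR had 424 CPM in VENsens line 3, with the others between 431 and 433 CPM. In VENins line 5, POR had 75.5 CPM, with the others between 53.5 and 58.0 CPM, and IGLL1 had 899 CPM, with the others between 705 and 747 CPM. Without the pair that holds the line, the log2 fold change moved from -0.37 to -0.28 for ABCB4, from 0.23 to 0.15 for CSF1R, from -0.011 to -0.016 for EZR, from 0.088 to 0.016 for POR and from 0.17 to 0.12 for IGLL1.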

How the results depend on the processing

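The number of transporters with an adjusted p under 0.05 was 0 under all 13 alternatives. Of 65 values of the 5 tested transporters, 59 kept their direction, none had an adjusted p under 0.05 (ABCC2 had none computed in either DESeq2 fit), and the smallest adjusted p was 0.149 (ABCC1, DESeq2 with no replicate block). The other 6 changed sign. The log2 fold change of ABCC2 became 0.0033 in DESeq2 with the line number and 0.042 with length and GC trends taken out, and that of ABCC5 became 0.022 with these trends taken out. With line pairs left out in turn, ABCC2 ranged from -0.059 to 0.091, above 0 without pair 2 (0.091) and without pair 3 (0.023), and ABCC4 ranged from -0.10 to 0.0013, which was the value without pair 5. ABCC1 ranged from -0.17 to -0.10, ABCC5 from -0.13 to -0.0095 and ABCC10 from -0.27 to -0.16 when pairs were left out. The causes were not tested. Of 208 values of 16 genes chosen from the other lists, taken after seeing the data, 191 kept their direction with no change in call (3 of these, CD3E and COL1A1 in DESeq2, had no adjusted p), 9 newly passed the threshold and 3, all of PAX5, no longer did. The sign changed for COL1A1 with length and GC trends taken out (0.0077) and without pairs 3 (0.0043) and 4 (0.081), and without pair 1 for ABCE1 (-0.0084) and EZR (0.0045), all of them uncalled. With pairs left out these ranged from -0.22 to 0.081 for COL1A1, from -0.0084 to 0.088 for ABCE1 and from -0.025 to 0.0045 for EZR.

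The number of all genes called was 33 in the model that holds the line number and 149 with no replicate block, 217 in DESeq2 with the line number and 739 without it, 664 with no filter on low counts, 154 with length and GC trends taken out, and between 6 and 331 with a pair left out. RLE size factors, library size alone and at least 10 counts in every library gave 35, 44 and 28. Lines with the same number did not deviate together: the correlation of their deviations lay between -0.103 and 0.028, and 0 of the 5 VENsens lines correlated best with the VENins line of its own number. In the other lists, 1 gene was called with the block and 2 with no replicate block, the second being EGR1 (adjusted p = 0.0382); GSTO1 was called in DESeq2 with no replicate block alone (0.0424). With no replicate block ABCC1 and ABCC10 had an unadjusted p under 0.05 in edgeR (0.0244 and 0.0249) and in DESeq2 (0.0221 and 0.0255).

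With the longest transcript as the length, mean levels in CPM per kilobase were 5.72 for ABCC1, 4.91 for ABCC4, 5.88 for ABCC5, 2.03 for ABCC10 and 0.317 for ABCC2. At 0 to 8 counts per library, depth limits ABCB1 and ABCG2.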
